A study of Danio rerio with 3 samples.

Results

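Pre-OPC is the name the authors gave to a class of cells that, by that name, precede oligodendrocyte precursor cells (OPCs) in the zebrafish embryo. Its members were the cells with that name in the deposited integrated annotation. The class held 350 of the 6264 cells of the series. Of these, 134 came from the library made at 36 hours post fertilisation (hpf) and 207 from the library made at 24 hpf, and these 341 cells are described here. The 48 hpf library held only 9 cells of the class. All libraries were made from wild-type embryos that carry Tg(olig2:EGFP), a transgene in which regulatory sequence of olig2 drives a green fluorescent protein, and all cells had been sorted for that fluorescence. No treatment was applied at any stage. Embryos were combined before sorting and each stage is a single library, so no value has a replicate and no test between stages was possible. The intervals given are 95% intervals for counting error over cells, and they leave out differences between embryos, sorts and libraries.

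The oligodendrocyte lineage of the ventral cord starts in the pMN domain, a zone of olig2-positive progenitors that makes motor neurons and then OPCs. Cells entering the lineage switch on sox10, a transcription factor of myelinating glia, and in zebrafish some also carry nkx2.2a, a transcription factor of the ventral cord. OPCs then migrate, divide and mature into cells that wrap axons in myelin. The deposited tables give values per cell but none per gene, so the name Pre-OPC could not be set against olig2, sox10 or nkx2.2a. It was set instead against the names that the same cells carry in a second annotation, made for each stage on its own. Both annotations name the same cells from the same molecules, so their agreement does not show that the name is right.

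The libraries differed in depth, which bears on every value below. RNA molecules were counted by their unique molecular identifiers (UMIs), with 10656224 UMIs over 2044 cells at 36 hpf and 16432785 UMIs over 1826 cells at 24 hpf. The median cell had 4569 UMIs at 36 hpf and 8935.5 UMIs at 24 hpf. These libraries shared 7 cell barcodes, of which 1 belonged to a Pre-OPC cell, and no barcode was Pre-OPC in more than 1 library. Doublets could not be called without values per gene.

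Pre-OPC cells made up a smaller share of the library at 36 hpf than at 24 hpf, and their share among cells called S or G2M, but not among cells called G1, differed between the stages beyond counting error. Pre-OPC cells were 6.56% of the 36 hpf library (exact 95% binomial interval 5.52 to 7.72) and 11.3% of the 24 hpf library (9.92 to 12.9). The 36 hpf share was 1.73-fold lower, with an exact conditional interval of 1.38 to 2.17. Among cells that the authors called G1 (neither copying DNA nor dividing by their expression scores), the Pre-OPC share was 5.18% at 36 hpf (65 of 1254 cells) and 5.13% at 24 hpf (32 of 624 cells). The ratio of these G1 shares was 1.01, with an interval of 0.652 to 1.60, so a difference in either direction of up to about that size would not have been detectable. Among cells called S (DNA synthesis) or G2M (the phases around mitosis), Pre-OPC cells were 8.73% at 36 hpf (69 of 790 cells) and 14.6% at 24 hpf (175 of 1202 cells), a 1.67-fold lower share at 36 hpf (1.25 to 2.24). By phase, the share among G2M cells was 2.10-fold lower at 36 hpf (1.37 to 3.29), with 30 of 428 cells at 36 hpf and 86 of 585 at 24 hpf. Among S cells it was 1.34-fold lower with an interval that includes no difference (0.909 to 2.0), with 39 of 362 cells at 36 hpf and 89 of 617 at 24 hpf. The ratio among G1 cells and that among S or G2M cells have overlapping intervals, and the difference between them was not tested. Shares of sorted cells depend on every other class in the sort, so a lower share does not give the number of Pre-OPC cells in an embryo.

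Within the class, most cells were called S or G2M at 24 hpf and about as many were called G1 as not at 36 hpf. At 36 hpf the class had 65 G1 cells, 39 S cells and 30 G2M cells. At 24 hpf it had 32 G1 cells, 89 S cells and 86 G2M cells. S or G2M calls therefore covered 51.5% of the class at 36 hpf and 84.5% at 24 hpf, a difference of -33.0 percentage points (95% interval, Newcombe, -42.5 to -23.1). The cells of all other classes together moved the same way, with 37.7% called S or G2M at 36 hpf (721 of 1910 cells) and 63.4% at 24 hpf (1027 of 1619), a difference of -25.7 points (-28.8 to -22.5). These other cells pool classes whose sizes differ between the stages, such as the interneuron class V3 IN with 142 cells at 36 hpf and 28 at 24 hpf. Their difference can thus reflect which classes were sorted as well as changes within classes, and these were not separated. Among classes with at least 50 cells at both stages, differences ran from -52.2 points in CMN Precursor to 0 in pMN1 and pMN2. The Pre-OPC and pooled intervals overlap, so a drop of this size was not shown to be particular to Pre-OPC. The S share of Pre-OPC differed by -13.9 points (-23.7 to -3.40), from values of 29.1% at 36 hpf and 43.0% at 24 hpf. The G2M share differed by -19.2 points (-28.4 to -9.03), from values of 22.4% at 36 hpf and 41.5% at 24 hpf. Among the cells called S or G2M, 43.5% were G2M at 36 hpf (31.6 to 56.0) and 49.1% at 24 hpf (41.5 to 56.8), and these intervals overlap. Motor neurons no longer divide, so their classes MN1 to MN5 served as the background of these calls. S or G2M was called in 9 of 358 cells of MN1 to MN5 at 36 hpf (2.51%, median 4164.5 UMIs) and in 2 of 142 at 24 hpf (1.41%, median 8587 UMIs), far below the Pre-OPC shares. The class CMN was not part of this background, though its name may also stand for motor neurons. Its shares were higher, at 9.82% at 36 hpf (16 of 163 cells) and 65.5% at 24 hpf (19 of 29). The low background thus holds for MN1 to MN5 only. All these classes were drawn on the expression that also sets the calls, so the background is not an independent rate of false calls.

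**Figure D1:**
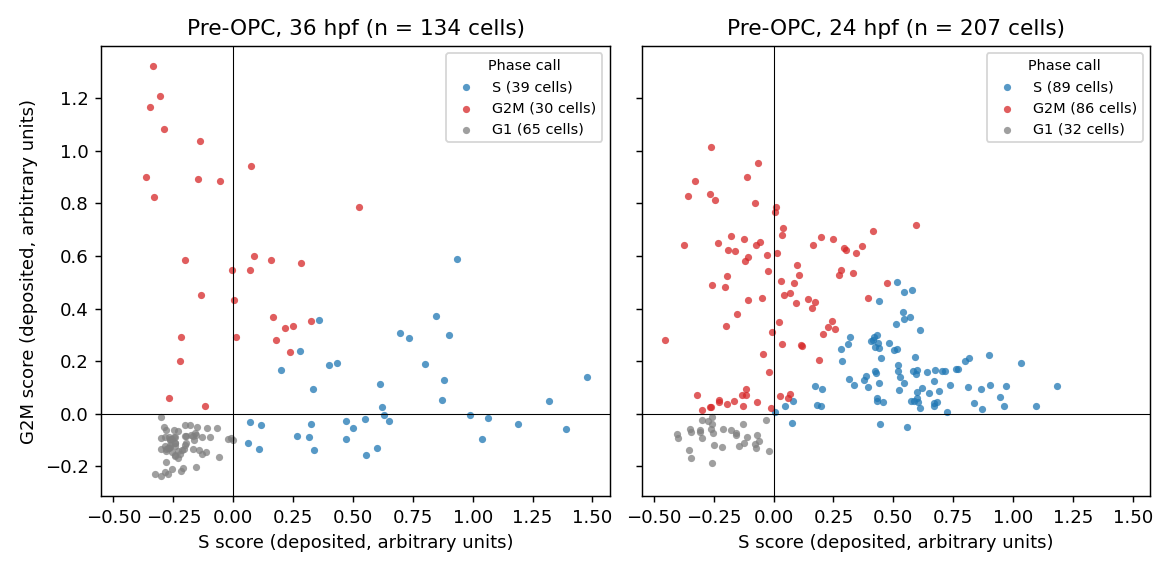
Each point is a Pre-OPC cell at 36 hpf (left, 134 cells) or 24 hpf (right, 207 cells), placed by its deposited S score (x axis) and G2M score (y axis), in arbitrary units, and coloured by its phase call; black lines mark scores of 0. At 36 hpf 65 cells lie in the lower left corner where neither score is above 0, against 32 at 24 hpf, and at 24 hpf nearly all S cells lie above the horizontal line.

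Among cells called S or G2M, the median of the score that set the call did not differ between the stages beyond counting error. The call is itself a cut on the S and G2M scores and the intervals are wide, so like levels are not shown. Scores of these names usually sum up the expression of DNA synthesis genes (S) and mitotic genes (G2M) relative to the cells scored together. No source at hand names the gene lists or says how the integrated table's scores were computed across stages, which limits how far their levels can be compared between stages. The deposited phase was the higher of these scores, or G1 where neither was above 0. Cells called S had a median S score of 0.598 at 36 hpf and 0.544 at 24 hpf, a difference of 0.05 with an interval of -0.15 to 0.26. Cells called G2M had a median G2M score of 0.561 at 36 hpf and 0.494 at 24 hpf, a difference of 0.07 (-0.15 to 0.34). G1 cells had a median S score of -0.230 at 36 hpf and -0.251 at 24 hpf. The highest S score was 1.48 at 36 hpf and 1.18 at 24 hpf, and the highest G2M score was 1.32 at 36 hpf and 1.02 at 24 hpf. Over the whole class, the median S score was -0.136 at 36 hpf (quartiles -0.245 and 0.307) and 0.171 at 24 hpf (-0.121 and 0.517), and the median G2M score was -0.0603 at 36 hpf (-0.123 and 0.227) and 0.162 at 24 hpf (0.0399 and 0.438). The medians of the class thus sat below 0 at 36 hpf and above 0 at 24 hpf. The higher score lay within 0.05 of 0 in 8 cells at 36 hpf (5.97%) and 17 cells at 24 hpf (8.21%). A higher score between 0 and 0.1 was found in 4 cells at 36 hpf and 21 cells at 24 hpf. With 0.1 in place of 0 as the border of the calls, the S or G2M share would be 48.5% at 36 hpf and 74.4% at 24 hpf, so the 24 hpf share depended on this border more than the 36 hpf share. Among cells called S or G2M, the scores lay within 0.05 of each other in 5 cells at 36 hpf and 15 cells at 24 hpf. A higher score above 0.5 was found in 29.1% of the class at 36 hpf and 46.4% at 24 hpf.

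S cells differed between the stages in their other score beyond counting error by the integrated table, but this was not shown by the tables of each stage. In the integrated table, the G2M score was also above 0 in 18 of 39 S cells at 36 hpf (46.2%, 30.1 to 62.8) and in 86 of 89 S cells at 24 hpf (96.6%, 90.5 to 99.3). The stages kept this order at like depth, with 13 of 29 S cells at 36 hpf and 16 of 18 at 24 hpf among cells with at least 4000 and under 8000 UMIs. In the tables made for each stage alone, 15 of 33 S cells had a G2M score above 0 at 36 hpf (45.5%, 28.1 to 63.6) and 32 of 98 at 24 hpf (32.7%, 23.5 to 42.9). The order of these shares was the other way, but their intervals overlap, so no difference was shown there. For G2M cells, the S score of the integrated table was above 0 in 14 of 30 cells at 36 hpf and 41 of 86 cells at 24 hpf, which is 46.7% at 36 hpf and 47.7% at 24 hpf. In pMN1, a progenitor class, S cells with a G2M score above 0 were 82.4% at 36 hpf (70 of 85 cells) and 92.6% at 24 hpf (100 of 108), all by the integrated table. In pMN3, another progenitor class, they were 31.9% at 36 hpf (23 of 72) and 36.9% at 24 hpf (59 of 160).

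Pre-OPC cells had fewer UMIs and detected genes at 36 hpf than at 24 hpf, like the library they came from. At 36 hpf they ranged from 514 to 23936 UMIs with a median of 4892 (quartiles 3975 and 6066). At 24 hpf they ranged from 1224 to 24510 UMIs with a median of 8904 (quartiles 6658 and 11290.5). The ratio of medians was 0.549, against ratios of 0.389 to 0.748 over the 9 classes with at least 50 cells at both stages, all of which were below 1. Detected genes had a median of 1338.5 per cell at 36 hpf and 1904 at 24 hpf. At a like UMI count this difference was small, with medians of 1335 genes at 36 hpf and 1347.5 at 24 hpf among cells with at least 4000 and under 6000 UMIs, and of 1663 genes at 36 hpf and 1647 at 24 hpf among cells with at least 6000 and under 8000. The mitochondrial share had a median of 0.920% at 36 hpf (range 0.334 to 5.00) and 0.538% at 24 hpf (0.155 to 3.82), and in the band from 6000 to under 8000 UMIs it was 0.967% at 36 hpf and 0.460% at 24 hpf. From 2000 to under 4000 UMIs the order was the other way, at 0.974% at 36 hpf (27 cells) and 1.27% at 24 hpf (8 cells). Both class medians lay below those of their libraries, which were 1.06% at 36 hpf and 0.686% at 24 hpf. A mitochondrial share above 2% was found in 9 Pre-OPC cells at 36 hpf and 7 at 24 hpf, and these were shallow, with median UMI counts of 1460 at 36 hpf and 2384 at 24 hpf.

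Within each stage, UMI count moved with the phase call. At 36 hpf the median cell had 4236 UMIs in G1, 5076 in S and 6569.5 in G2M. At 24 hpf the medians were 6559.5 in G1, 9325 in S and 9414.5 in G2M. S or G2M cells thus had 1.38-fold the UMIs of G1 cells at 36 hpf and 1.43-fold at 24 hpf. No G1 cell had more than 6479 UMIs at 36 hpf, while 26 Pre-OPC cells did. At 24 hpf the G1 cell with the most UMIs had 10587, and 62 Pre-OPC cells had more. Across cells, UMI count and G2M score had a Spearman's rho of 0.49 and a Pearson's r of 0.48 at 36 hpf (134 cells), and a rho of 0.45 and an r of 0.34 at 24 hpf (207 cells). UMI count and S score had a rho of 0.24 and an r of 0.25 at 36 hpf, and a rho of 0.23 and an r of 0.18 at 24 hpf. These are descriptions of cells that share a library, and both scores come from the same molecules as the UMI count. Mitochondrial share showed no such order of phases at 36 hpf, with medians of 0.933% in G1, 0.936% in S and 0.876% in G2M, whereas at 24 hpf G1 cells had the lowest median, 0.426%, against 0.557% in S and 0.590% in G2M.

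**Figure D2:**
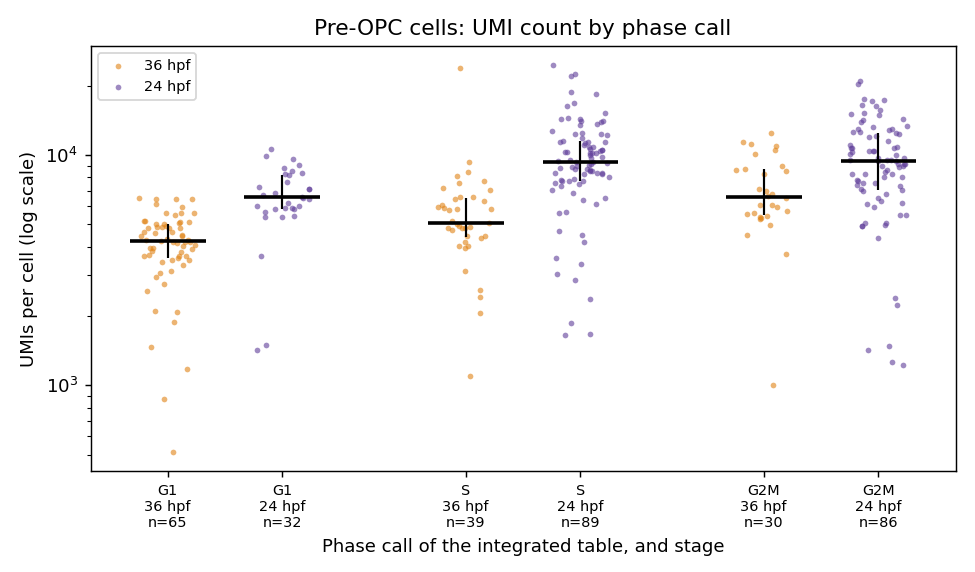
UMIs per Pre-OPC cell (log scale) by phase call and stage, with 36 hpf left of 24 hpf in each pair; points are cells, thick lines medians and thin lines the quartiles. In every phase the 36 hpf median lies below the 24 hpf median, and within a stage the G1 median, 4236 UMIs at 36 hpf and 6559.5 at 24 hpf, is the lowest.

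Read within bands of UMI count, the phase difference between the stages was large in shallow Pre-OPC cells and smaller or turned in deeper ones. The other cells of these libraries, pooled over their classes, showed the same order, but single classes did not all do so. Under 4000 UMIs, S or G2M calls covered 8 of 34 cells at 36 hpf (23.5%, 10.7 to 41.2) and 14 of 17 cells at 24 hpf (82.4%, 56.6 to 96.2), a difference of -58.8 points (-74.8 to -30.2). From 4000 to under 6000 UMIs they covered 30 of 64 cells at 36 hpf (46.9%) and 14 of 22 at 24 hpf (63.6%), a difference of -16.8 points whose interval includes 0 (-37.1 to 7.18). From 6000 to under 8000 UMIs the order turned, with 16 of 21 cells at 36 hpf (76.2%) and 27 of 39 at 24 hpf (69.2%), a difference of 6.96 points that also includes 0 (-17.6 to 27.4). At 8000 UMIs or more, all 15 cells at 36 hpf (78.2 to 100) and 120 of 129 at 24 hpf (93.0%, 87.2 to 96.8) were called S or G2M. The cells of all other classes gave 15.9% at 36 hpf and 47.5% at 24 hpf under 4000 UMIs, and 25.1% at 36 hpf and 39.4% at 24 hpf from 4000 to under 6000. Among these other cells the order turned by more, to 79.8% at 36 hpf and 41.6% at 24 hpf from 6000 to under 8000 UMIs, and it was 84.5% at 36 hpf and 76.5% at 24 hpf at 8000 or more. The shallow Pre-OPC cells are few at 24 hpf, where 8.21% of the class had under 4000 UMIs, against 25.4% at 36 hpf. At 24 hpf the share called S or G2M was lowest in the bands from 4000 to under 8000 UMIs, whereas at 36 hpf it was lowest under 4000 UMIs. The 17 shallow cells at 24 hpf allow wide intervals. Over the bands that held at least 10 cells at both stages, which were those from 4000 to under 8000 UMIs, the mean of the band shares was 61.5% at 36 hpf and 66.4% at 24 hpf, a difference of -4.90 points. With the phase calls of the stage tables the same mean was 56.8% at 36 hpf and 49.7% at 24 hpf, a difference of 7.16 points in the other direction. These means have no interval. By the stage-table calls the differences were -3.27 points (-26.1 to 18.9) from 4000 to under 6000 UMIs and 17.6 points (-8.30 to 38.8) from 6000 to under 8000. Both intervals include 0, so a change of direction was not shown.

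With the range of at least 4000 and under 8000 UMIs taken as a single group, the stages differed in the integrated G2M calls beyond counting error. In the integrated S calls the interval of the difference includes 0. In this range 20% were G2M at 36 hpf (17 of 85 cells, 12.1 to 30.1) and 37.7% at 24 hpf (23 of 61, 25.6 to 51.0), a difference of -17.7 points (-32.1 to -2.96). S calls covered 34.1% at 36 hpf (29 of 85) and 29.5% at 24 hpf (18 of 61), a difference of 4.61 points (-10.8 to 19.1). Even within this range the 36 hpf cells were shallower, and the difference in integrated G2M calls was larger in its lower part. The intervals of its lower and upper parts overlap, and the difference between these parts was not tested. From 4000 to under 6000 UMIs, G2M was called in 10 of 64 cells at 36 hpf and 9 of 22 at 24 hpf, a difference of -25.3 points (-46.8 to -4.59). From 6000 to under 8000 it was called in 7 of 21 cells at 36 hpf and 14 of 39 at 24 hpf, a difference of -2.56 points (-25.1 to 22.5). The mean over these bands was -13.9 points. By the calls of the stage tables, G2M was called from 4000 to under 6000 UMIs in 9 of 64 cells at 36 hpf and 4 of 22 at 24 hpf. From 6000 to under 8000 UMIs those calls gave 7 of 21 cells at 36 hpf and 8 of 39 at 24 hpf. The G2M difference at like depth thus depended on the table that was read. In the single range, integrated S and G2M calls together differed by -13.1 points, with an interval of -27.9 to 3.02. Depth and stage differ together in these libraries, and whether UMI count marks RNA content or capture was not tested.

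**Figure D3:**
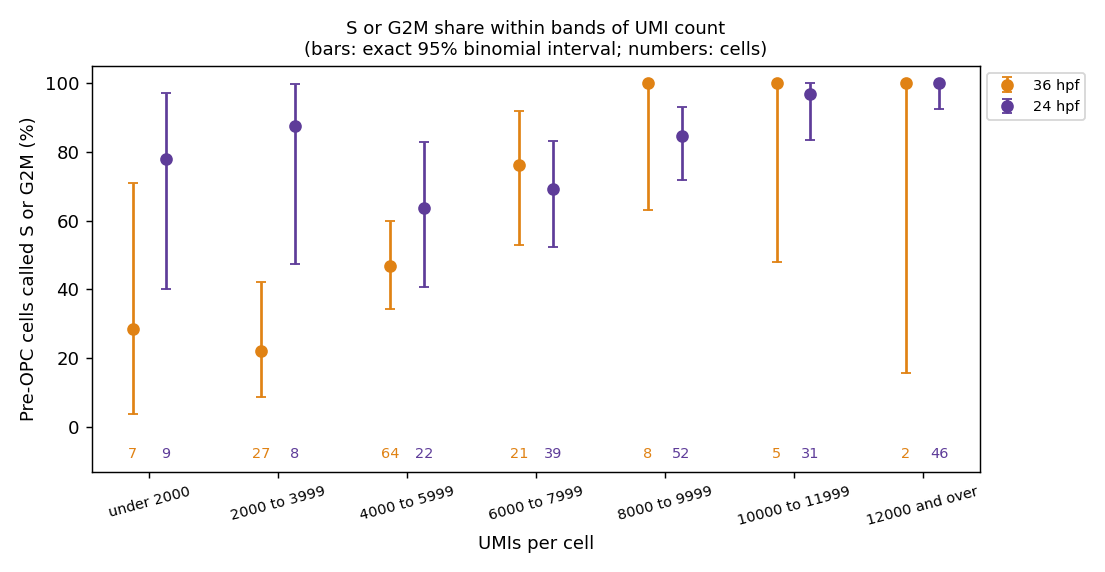
Share of Pre-OPC cells called S or G2M (y axis, %) within bands of UMIs per cell (x axis) at 36 hpf (orange, left of each pair) and 24 hpf (purple), with exact 95% binomial intervals and the number of cells under each point. Below 6000 UMIs the 36 hpf points lie under the 24 hpf points, and from 6000 to under 8000 UMIs the 36 hpf point, 76.2%, lies above the 24 hpf point, 69.2%.

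Within each stage, the deepest cells had the highest share of S or G2M calls. When the class was split at each stage into 5 groups of near equal size by UMI count, the shares from the shallowest to the deepest group were 22.2%, 33.3%, 38.5%, 66.7% and 96.3% at 36 hpf, and 69.0%, 73.2%, 85.4%, 95.1% and 100% at 24 hpf. The 36 hpf value was the lower in every group. At 24 hpf these groups hide the shallow cells described above, since the shallowest group joins the cells under 4000 UMIs, 82.4% of them called S or G2M, with deeper cells of a lower share. The deepest group spanned 6479 to 23936 UMIs at 36 hpf and 12379 to 24510 at 24 hpf.

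The name Pre-OPC was largely shared by both annotations, which are not independent of each other. Of the integrated Pre-OPC cells, 117 of 134 at 36 hpf (87.3%, 80.5 to 92.4) and 202 of 207 at 24 hpf (97.6%, 94.5 to 99.2) also had a Pre-OPC name in the table of their stage. In the other direction, the shared cells were 91.4% of the 128 cells so named in the 36 hpf table and 94.0% of the 215 in the 24 hpf table. The 17 cells at 36 hpf with another name had a median of 5770 UMIs, and 9 of them were called S or G2M. The 7 that the stage table placed in pMN1, pMN2 or pMN3 were all called S or G2M, whereas 7 of the 8 placed in the interneuron classes dl IN and V3 IN were called G1. The remaining cells were 1 NP and 1 Retinal Progenitor. These calls are near those of whole classes with the same names. By the integrated names at 36 hpf, S or G2M covered 100% of pMN1 and pMN2, 89.5% of pMN3 and 1.41% of V3 IN. The integrated annotation has no class dl IN. At 24 hpf the 5 cells with another name were 3 Pre-MN (forming motor neurons), 1 GABAergic IN and 1 V2 IN Precursor, and the last had the fewest UMIs of the class, 1224.

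Cells that only the stage tables called Pre-OPC went to other classes at each stage. At 36 hpf there were 11, of which 6 were NP1, a neural precursor class, in the integrated table. Those 6 cells were shallow, with a median of 1227.5 UMIs. At 24 hpf there were 13, of which 7 were pMN2 and 3 were pMN1. All 10 of these were called S or G2M, but so were all 230 pMN1 and all 125 pMN2 cells of that library. The calls therefore say nothing about these 10 cells beyond their class. The remainder at 24 hpf were 1 cell each of NP1, OPC and CMN Precursor.

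The 24 hpf table split the class by name into Pre-OPC1 and Pre-OPC2, a split that the 36 hpf and integrated tables do not have. The integrated Pre-OPC cells included 95 Pre-OPC1 and 107 Pre-OPC2 cells, with near equal median UMI counts of 9033 in Pre-OPC1 and 8543 in Pre-OPC2 and median mitochondrial shares of 0.531% in Pre-OPC1 and 0.532% in Pre-OPC2. S or G2M calls covered 87.4% of Pre-OPC1 (79.0 to 93.3) and 84.1% of Pre-OPC2 (75.8 to 90.5), a difference of 3.26 points (-6.71 to 12.9). By the calls of the 24 hpf table these shares were 83.2% of Pre-OPC1 and 72.9% of Pre-OPC2, a difference of 10.3 points (-1.30 to 21.3). S calls covered 50.5% of Pre-OPC1 and 38.3% of Pre-OPC2, a difference of 12.2 points (-1.47 to 25.3) by the integrated calls and of 17.7 points (3.90 to 30.6) by the calls of the 24 hpf table, with 57.9% in Pre-OPC1 and 40.2% in Pre-OPC2. G2M calls covered 36.8% of Pre-OPC1 and 45.8% of Pre-OPC2 by the integrated calls, a difference of -8.95 points (-22.0 to 4.61), and the difference was -7.45 points (-19.5 to 5.14) by the 24 hpf table. Of these differences in calls, only that in S by the 24 hpf table has an interval that leaves out 0. The median S score was 0.309 in Pre-OPC1 and 0.0869 in Pre-OPC2, a difference of 0.22 (0.02 to 0.39), while the median G2M score was 0.161 in Pre-OPC1 and 0.170 in Pre-OPC2. Names and scores come from the expression of the same cells, so these values describe the split and do not test it.

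**Figure D4:**
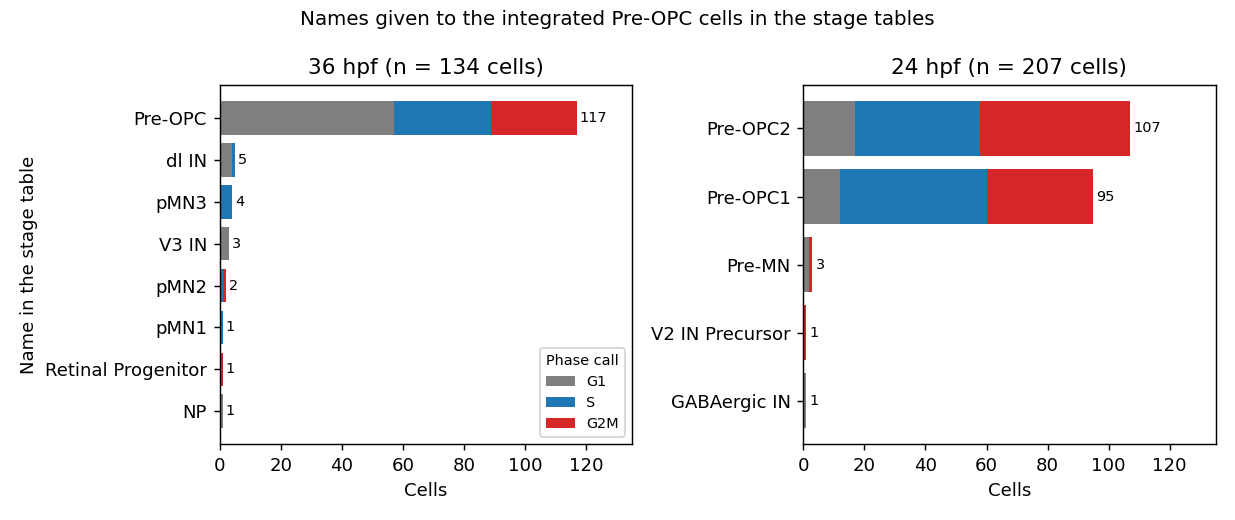
Names in the stage tables of the cells that the integrated table calls Pre-OPC, at 36 hpf (left) and 24 hpf (right); bar length is the number of cells, colours are phase calls of the integrated table, and the number of cells is written at each bar. Pre-OPC names cover 117 of 134 cells at 36 hpf and 202 of 207 at 24 hpf, where they are split into Pre-OPC1 (95 cells) and Pre-OPC2 (107 cells).

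Phase calls of the same Pre-OPC cell differed between the tables more often at 24 hpf. The calls were equal in 126 of 134 cells at 36 hpf (94.0%, 88.6 to 97.4) and 177 of 207 at 24 hpf (85.5%, 80.0 to 90.0), against 96.8% of all cells of the 36 hpf library and 91.9% of the 24 hpf library. All 65 G1 cells at 36 hpf and all 32 at 24 hpf kept that call in the stage tables. The changes at 24 hpf were mostly in G2M cells, of which 15 became G1 and 12 became S. The 30 cells with a changed call at 24 hpf had a median higher score of 0.0735. By the stage tables, S or G2M calls covered 47.8% of the class at 36 hpf and 76.8% at 24 hpf, a difference of -29.1 points (-38.8 to -18.6). The G2M share then differed by only -6.33 points with an interval that includes 0 (-15.4 to 3.40), from 23.1% at 36 hpf and 29.5% at 24 hpf, and the S share by -22.7 points (-32.1 to -12.3), from 24.6% at 36 hpf and 47.3% at 24 hpf. Which of S and G2M differed more between the stages thus depended on the table.

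Over cells of all depths, the share of S or G2M calls in Pre-OPC lay below those of the pMN progenitors and above that of the precursor class NP1. In pMN1 and pMN2 every cell was called S or G2M at both stages, and in pMN3 89.5% were at 36 hpf (95 cells) and 98.6% at 24 hpf (212 cells). In NP1 the shares were 38.1% at 36 hpf (118 cells) and 64.0% at 24 hpf (89 cells). Among the 9 classes with at least 50 cells at both stages, Pre-OPC had the third lowest difference between the stages. It came after CMN Precursor (-52.2 points) and Lateral FP, a class named for the lateral floor plate (-35.3 points), with NP1 next at -25.9 points. Unlike Pre-OPC, pMN1 and pMN2 also showed 100% in cells under 4000 UMIs at 36 hpf (10 cells of pMN1 and 21 of pMN2). In the band from 4000 to under 8000 UMIs, Lateral FP had 48.6% at 36 hpf (72 cells) and 58.2% at 24 hpf (67 cells), and NP1 had 38.5% at 36 hpf (52 cells) and 68.8% at 24 hpf (32 cells). Pre-OPC had 54.1% at 36 hpf and 67.2% at 24 hpf in this band. The order against NP1 did not hold at every depth, since NP1 was slightly higher in this band at 24 hpf, and under 4000 UMIs at 36 hpf Pre-OPC had 23.5% (34 cells) and NP1 36.9% (65 cells). The classes were drawn on the expression that also sets the calls, so no test of these differences was made.

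**Figure D5:**
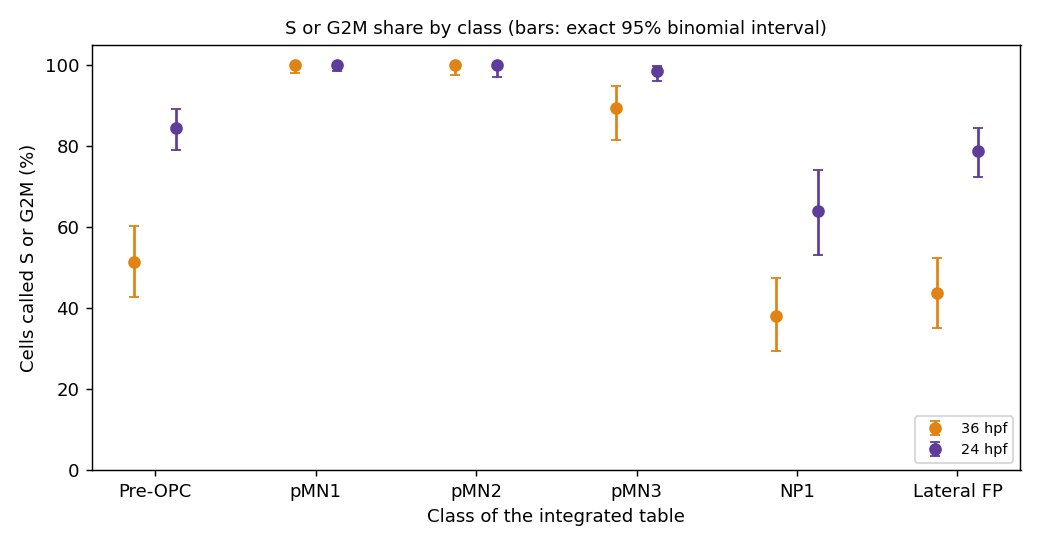
Share of cells called S or G2M (y axis, %) in Pre-OPC and 5 other classes of the integrated table (x axis), at 36 hpf (orange, left of each pair) and 24 hpf (purple), with exact 95% binomial intervals. Pre-OPC, at 51.5% at 36 hpf and 84.5% at 24 hpf, lies below the pMN classes and above NP1 at both stages when cells of all depths are counted.

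In the authors' embedding of all cells, most Pre-OPC cells lay among cells of the same name at both stages. Of the 15 nearest cells of each Pre-OPC cell, 93.0% on average were Pre-OPC at 36 hpf and 97.5% at 24 hpf. The other neighbours at 36 hpf were mostly V3 IN (2.89%) and NP1 (1.39%), and OPC made up 0.249%. At 24 hpf they were mostly NP2 (0.773%) and pMN1 (0.676%). Cells for which fewer than 50% of these neighbours were Pre-OPC numbered 6 at 36 hpf, of which 5 were G1, and 3 at 24 hpf, of which 2 were G1. The G1 cells had a lower median than the others along the first axis of the embedding. The medians were -2.29 in G1, -0.137 in S and -0.305 in G2M at 36 hpf, and -2.29 in G1, -0.317 in S and -0.580 in G2M at 24 hpf. How far the phases overlap along this axis was not described. Names, phase calls and embedding come from the expression of the same cells, so these values describe the class and do not test it.

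The 9 cells of the 48 hpf library were a mixed set. None had a Pre-OPC name in the 48 hpf table, which does not use that name, and they were called Mes (3 cells), OPC (2 cells), MN1, NP, Pre-MN and RG (1 cell each) there. Their UMI counts ran from 673 to 19392, and 5 were called S or G2M, including all 3 Mes cells. Of their 15 nearest cells in the embedding, 43.0% on average were Pre-OPC and 25.2% were Mes1. The median Pre-OPC share was only 13.3%, and 5 of the 9 cells had fewer than 50% Pre-OPC neighbours. Phase calls were equal in both tables for 4 of the 9. The 127 OPC cells of the 48 hpf library, the class named for the next step of the lineage, had 12 cells called S or G2M (9.45%, 4.98 to 15.9) at a median of 7939 UMIs, and the 70 Pre-OL cells had none (upper limit of the exact interval 5.13%). These are calls of the integrated table, and at 48 hpf only 73.8% of the library's calls were equal in both tables. By the 48 hpf table, S or G2M was called in 41 of the 127 OPC cells (32.3%) and 8 of the 70 Pre-OL cells (11.4%). The MN1 to MN5 cells of that library were at 18.9% by that table, against 0.615% by the integrated one. The share of OPC cells in S or G2M is thus unsettled at 48 hpf.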

How the data were processed

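Embryos were dissociated, EGFP-positive cells were sorted, and 1 library per stage was made with a 10x Chromium 3' kit, per the labels' protocols. The submitters' processing notes name Cell Ranger, Seurat and the build GRCz11, without versions or settings. The 4 tables used hold values per cell and none per gene. The authors deposited UMIs and detected genes per cell as raw counts. They deposited the mitochondrial share of a cell as a percent, at most 5.00%, and no cell had under 504 UMIs, so cells had been filtered before deposit. S and G2M values are scores that the authors deposited, relative to the cells scored together, and embedding coordinates are deposited scores. No source used here says how doublets were treated. Cells could not be thinned to an equal depth, since that needs the counts of single genes.

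Cells were matched between tables by barcode and stage, and all 6264 had equal UMI counts in both. The members and the quantities described were chosen with earlier results of these data known. Shares have exact (Clopper-Pearson) intervals, differences Newcombe intervals, ratios exact conditional intervals, and differences of medians intervals built from the exact binomial intervals of each median. No p-value was computed. No genes are named with values, since the tables hold none. Bands of UMI count were cut every 2000 from 2000 to 12000, and band means used bands with at least 10 cells at both stages. Alternatives were a minimum of 2000 UMIs, leaving out the deepest 5% of cells, at most 3% mitochondrial share, other class names, other phase calls and bands of depth. The intervals of shares and of differences of shares were tested on simulated data. Taking means over bands was also tried on simulated cells, with more cells per stage than the class holds. The intervals of ratios and of medians were not tested in this way. Nearest cells in the embedding were found with scikit-learn 1.9.0, and all else was computed with pandas 2.3.3, scipy 1.17.1 and numpy 2.4.6 under Python 3.11.15, with plots by matplotlib 3.10.9.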

Additional observations from a re-analysis of the deposited data

How the results depend on the processing

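Over 13 results and 89 alternatives, 74 values stayed within the counting interval of the value reported, and these include every cell filter and every change of class names. The 15 others all came from phase calls or depth. For the S or G2M share at 24 hpf (84.5%), the calls of the stage tables gave 76.8%, a higher score above 0.1 gave 74.4%, bands of 2000 UMIs gave 66.4%, 5 groups of near equal size by joint UMI count gave 71.0%, cells with 4000 to under 8000 UMIs gave 67.2%, and stage-table calls within bands gave 49.7%. The share at 36 hpf (51.5%) moved only within bands, to 61.5%. The difference of 36 minus 24 hpf (-33.0 points) was -4.90 within bands, -18.9 within joint groups and -13.1 among cells with 4000 to under 8000 UMIs, and it turned to 7.16 with stage-table calls within bands. Values within bands or joint groups are means without an interval, so a changed sign in them does not show a difference in the other direction. The S difference (-13.9 points) was -0.56 within joint groups and turned to 9.02 within bands and 4.61 among cells with 4000 to under 8000 UMIs. The G2M difference (-19.2 points) was -6.33 by the stage-table calls. Bands could use only 85 cells at 36 hpf and 61 at 24 hpf, and joint groups 121 cells at 36 hpf and 84 at 24 hpf. The deepest joint groups were left out. At 24 hpf they held 60 and 63 cells, of which 90% and 98.4% were called S or G2M. The single range of 4000 to under 8000 UMIs, stage-table calls within bands, and the split into 5 groups per stage were chosen after seeing the data. The cause of these changes was not tested.

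No paired analysis was possible because each stage has 1 library, and no replicate was left out. The interval of the difference in S or G2M share, -42.5 to -23.1 points around -33.0, shows the precision that these numbers of cells give.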
